A study of Homo sapiens with 3 samples.

Results

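The genes described here encode voltage-gated sodium and calcium channels, hyperpolarisation-activated cation channels and potassium channels, together with several of their accessory subunits. They were chosen by gene symbol alone: SCN with a number and A or B, KCNA, KCNB, KCNC, KCND, KCNH, KCNJ, KCNK, KCNMA, KCNN, KCNQ, HCN with a number, CACNA, CACNB and CACNG. The name pattern took 131 rows of the gene table; 18 antisense genes were left out, as was KCNJ8, a marker of pericytes. This left 112 genes of 33538, all of them protein coding, which fall into 18 subfamilies.

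Sodium channels carry the rising phase of the action potential, potassium channels return the membrane to rest and set the resting potential, and calcium channels couple depolarisation to transmitter release, contraction and transcription. A sodium channel holds a large pore-forming alpha subunit and small beta subunits, while a high-voltage-activated calcium channel adds beta and alpha2delta subunits to its alpha1 pore. Inward rectifier (KCNJ) and tandem-pore (KCNK) potassium channels also work in cells that do not fire, among them endothelium, smooth muscle and epithelium.

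RNA was counted in single cells of blood vessel organoids made with the human embryonic stem cell line H1. All organoids, the uninduced ones included, came from cells with a PiggyBac-integrated, doxycycline-inducible cassette for NEUROD1, a factor that drives cells towards a neuronal fate, joined through a P2A peptide to GFP. All were harvested on day 45. The comparison asked which cells and genes appear when NEUROD1 is switched on among the vascular cells. Organoids without doxycycline, organoids induced for 15 days and organoids induced for 45 days gave 1 library each, the induced ones with doxycycline at 1 µg/ml. The neurotrophins BDNF and NT-3 were in the medium of all organoids from day 15. Each library pooled 5 to 6 organoids, and which 15 days were the induced ones was not given. With 1 library per group, no difference between libraries has a replicate check. No test was made, and the intervals given are exact 95% intervals that cover counting error only.

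The library without induction held 10232 barcodes and 59879923 unique molecular identifiers (UMIs, counted RNA molecules), the library labelled 15 days 5962 barcodes and 49488425 UMIs, and the library labelled 45 days 10765 barcodes and 64171327 UMIs. After filters 8230, 5078 and 8900 cells remained in that order, and no pair of libraries shared more than 33 barcodes. NEUROD1 had 1.504 counts per 1000000 UMIs (CPM) over all cells without induction, 1.43 CPM in the library labelled 15 days and 43.8 CPM in the library labelled 45 days. The near-equal sums of the uninduced and 15 day libraries came from different cells. At 15 days NEUROD1 had 11.6 CPM in neuron-like cells, described next, and 0.0996 CPM in the other cells; without induction it had 109 CPM in the 77 cells of cluster 26, unnamed and led by GNRH2, SPINK1 and MLN, and under 1 CPM in every other cluster. At 45 days it had 735 CPM in neuron-like cells and 2.64 CPM in the others. Whether the cassette's transcript ends within the counted gene was not given. Cells were clustered with all channel genes left out, and 2 of the 28 clusters were neuron-like by a list of 15 neuronal markers. They held 0 of 8230 cells without induction, which allows a share of up to 0.0448%, 299 of 5078 cells (5.89%, 5.26 to 6.57%) in the library labelled 15 days and 305 of 8900 cells (3.43%, 3.06 to 3.83%) in the library labelled 45 days. The 15 neuronal markers summed to 24691 CPM in neuron-like cells and 534 CPM in the other cells of the 45 day library, and to 31976 and 791 CPM in the library labelled 15 days. Of markers of other classes, the mesenchymal list summed in neuron-like cells to 2113.5 CPM, against 10546 CPM in the other cells, in the 45 day library. In the library labelled 15 days the same list stood at 1950 CPM in neuron-like cells, against 8809 CPM in the others. What part this RNA had in the levels below was not tested.

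Channel RNA was concentrated in the neuron-like cells. The 112 genes together reached 1894 CPM in neuron-like cells and 347 CPM in the other cells of the 45 day library, and 2217 CPM in neuron-like cells and 380 CPM in the other cells of the library labelled 15 days. Without induction, where no cell was neuron-like, they summed to 355 CPM. A gene was called higher or lower at a 4-fold difference, with 1 CPM added to both sides, if it reached 5 CPM on at least 1 side. At 45 days 62 of the 112 genes reached that floor, 41 were higher in neuron-like cells and 1 was lower, where 11.0% of all 12688 genes at the floor were higher and 7.35% lower. In the library labelled 15 days 63 reached the floor, 40 were higher and 3 lower, where the shares of all genes were 9.75% and 11.3%. Of these genes, 35 were higher in both libraries and 46 in at least 1 of them. Many passed the floor only through the neuron-like cells, 43 at 45 days and 41 at 15 days, so that they had to differ. Among the 19 genes with 5 CPM or more in the other cells at 45 days, 6 were higher in neuron-like cells, against 3.96% of the 10993 genes selected in that way. At 15 days it was 5 of 22, against 3.90%.

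Of the 10 pore-forming sodium channel genes 6 reached the floor at 45 days and 7 at 15 days. In each induced library 6 were higher in neuron-like cells: SCN1A, SCN2A, SCN3A, SCN7A, SCN8A and SCN9A. Of all genes at the floor 11.0% were higher at 45 days and 9.75% at 15 days, here and for the subfamilies below. SCN1A and SCN2A passed the floor only through the neuron-like cells, while SCN9A also had 5 CPM or more in the others. Any gene called below with under 5 CPM in the other cells likewise passed only through the neuron-like cells and could only be higher. SCN2A, the sodium channel of early axons in the brain, had 85.5 CPM in neuron-like cells and 1.13 CPM in the other cells at 45 days, a 75.8-fold difference (57.0 to 102). At 15 days SCN2A had 95.3 CPM in neuron-like cells and 1.59 CPM in the others. It was found in 29.2% and 51.2% of neuron-like cells at 45 and 15 days, but in 0.751% and 1.46% of mesenchymal-like cells, a class that should lack it; a neuron-like cell had a median of 5477 and 9627 UMIs, a mesenchymal-like cell 5343 and 6967 UMIs. SCN9A encodes the sodium channel of peripheral sensory and sympathetic neurons. SCN9A had 120 CPM in neuron-like cells and 6.42 CPM in the others at 45 days, 18.8-fold (16.2 to 21.8), and 265 and 19.8 CPM at 15 days, 13.4-fold (12.2 to 14.6). SCN9A thus had a clear level outside neurons too, which is taken up further on. SCN1A, a sodium channel of fast-spiking brain neurons and of some sensory neurons, had 18.6 CPM in neuron-like cells against 0.191 CPM in the others at 45 days and 42.4 CPM against 0.523 CPM at 15 days.

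The remaining alpha subunits were rare. SCN10A, a sodium channel of nociceptors, had 0 UMIs in neuron-like cells of the 45 day library and 21 UMIs in 13 neuron-like cells of the library labelled 15 days, below the floor; no other cell of either library had a UMI. SCN4A, the skeletal muscle sodium channel, had 0 UMIs in neuron-like cells of both libraries.

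Of the 4 beta subunit genes, SCN3B had the widest gap between neuron-like and other cells. It had 142 CPM (442 UMIs in 130 of 305 cells) in neuron-like cells and 1.28 CPM in the others at 45 days, 111-fold (85.7 to 146). In the library labelled 15 days SCN3B had 162 CPM (852 UMIs in 167 of 299 cells) and 1.87 CPM, 86.8-fold (68.5 to 111). SCN2B passed the size rule at 15 days, with 14.1 CPM in neuron-like cells and 2.61 CPM in the others. Beta subunits assist trafficking and gating of the alpha subunits.

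Since the neuron-like and the other cells differed in depth, shares of cells were also taken after thinning each cell to 2000 UMIs. This left out 64 and 63 neuron-like cells at 45 and 15 days. Of these, 64 and 62 came from cluster 18, the shallower of the 2 neuron-like clusters described below, which held 194 and 122 cells. Only 0 and 1 came from the other, cluster 21. The thinned shares thus rest more on cluster 21, by different amounts in the 2 libraries. After thinning SCN3B was found in 22.8% of neuron-like cells at 45 days and 28.8% at 15 days, against 0.200% and 0.184% of mesenchymal-like cells. Unthinned, SCN3B was found in 42.6% and 55.9% of neuron-like cells.

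Of the 10 alpha1 genes of calcium channels 7 reached the floor and 3 were higher in each library: CACNA1A, CACNA1B and CACNA1E. These encode the pores of the presynaptic P/Q-type and N-type channels and of the R-type channel. CACNA1B showed a steep difference, with 19.6 CPM in neuron-like cells and 0.172 CPM in the others at 45 days (114-fold, 56.3 to 261), and 22.5 and 0.249 CPM at 15 days. CACNA1A was found outside neurons as well, with 74.2 CPM in neuron-like cells and 12.9 CPM in the others at 45 days, and 82.6 and 8.72 CPM at 15 days. CACNA1C, the L-type channel of smooth muscle and heart, was close to even between neuron-like and other cells, with 33.4 and 24.9 CPM at 45 days (1.34-fold, 1.09 to 1.64) and 26.3 and 26.9 CPM at 15 days (0.974-fold, 0.810 to 1.16). CACNA1G, a low-voltage-activated T-type channel, was likewise within the size rule, at 12.9 CPM in neuron-like cells and 18.1 CPM in the others at 45 days and 10.3 and 8.97 CPM at 15 days.

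Among the accessory subunits of calcium channels, the alpha2delta gene CACNA2D1, whose product brings channels to the membrane and binds gabapentin, had 79.0 CPM in neuron-like cells and 7.43 CPM in the others at 45 days and 112 and 7.07 CPM at 15 days. CACNB4 was the single beta gene of 4 past 4-fold, with 75.5 CPM in neuron-like cells and 15.2 CPM in the others at 45 days and 100 and 13.3 CPM at 15 days. CACNB3 stayed under it, with 52.4 CPM in neuron-like cells against 28.0 CPM in the others at 45 days. Of the 8 CACNG genes, some of which traffic AMPA receptors, CACNG2, CACNG3 and CACNG4 were higher at 45 days, and CACNG2 and CACNG4 at 15 days. CACNG2 had 26.0 CPM in neuron-like cells and 0.0764 CPM in the others at 45 days. In the library labelled 15 days it had 10.3 CPM (54 UMIs) in neuron-like cells and no UMI in the others, at least 138-fold higher with 3 UMIs taken for the 0.

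HCN channels open on hyperpolarisation and carry the pacemaker current of rhythmically firing cells. HCN2 and HCN3 were higher in neuron-like cells of both libraries, and both passed the floor only through those cells. HCN2 had 29.9 CPM in neuron-like cells and 1.05 CPM in the others at 45 days, 28.4-fold (20.2 to 40.5), and 34.1 and 1.44 CPM at 15 days, 23.6-fold (17.4 to 32.3).

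Of the voltage-gated potassium channel genes, KCNA1 and KCNA2 of 8 KCNA genes, KCNB2, KCNC1 of 4 and KCND3 of 3 were higher in both libraries. All of these passed the floor only through the neuron-like cells. KCNA1, a low-threshold channel of axons, had 54.9 CPM in neuron-like cells and 3.61 CPM in the others at 45 days and 77.8 and 2.64 CPM at 15 days. KCNB2, a slow delayed rectifier, had 25.4 CPM in neuron-like cells against 0.0573 CPM (3 UMIs) in the others at 45 days, and 23.6 against 0.772 CPM at 15 days. KCNC1, of the fast delayed rectifiers that allow high firing rates, had 42.7 CPM in neuron-like cells and 2.06 CPM in the others at 45 days and 32.3 and 1.52 CPM in the same pair at 15 days. The KCNAB genes encode cytoplasmic beta subunits of KCNA channels. KCNAB1 had 20.6 CPM in neuron-like cells and 3.5 CPM in the others at 45 days and 82.0 and 4.33 CPM at 15 days. Of the 64 KCNAB1 UMIs in neuron-like cells at 45 days, 14 came from 1 cell.

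Inward rectifier and leak channel genes were called as well. Of 15 KCNJ genes 5 reached the floor in each library. At 45 days 5 were higher (KCNJ3, KCNJ4, KCNJ6, KCNJ12 and KCNJ16) and at 15 days 4, the same without KCNJ16. KCNJ3 and KCNJ6 encode subunits of the G protein-gated inward rectifier that slows firing after opioid, muscarinic and similar signals. KCNJ6 had 48.8 CPM in neuron-like cells and 0.134 CPM (7 UMIs) in the others at 45 days, 365-fold (173 to 924), and 20.0 and 0.423 CPM at 15 days, 47.2-fold (28.1 to 84.1). Of 15 KCNK leak channel genes 7 reached the floor at 45 days and 6 at 15 days. At 45 days 4 were higher (KCNK3, KCNK9, KCNK10 and KCNK12) and at 15 days 3, the same without KCNK9. At 15 days the liver-like cells, described further on, had more KCNK12 than the neuron-like cells. KCNK3, an acid-sensitive leak channel, had 65.5 CPM in neuron-like cells and 1.01 CPM in the others at 45 days and 36.5 and 1.37 CPM in the same pair at 15 days. None of the 4 calcium-activated KCNN genes was called at either time by the 4-fold rule. KCNQ3, a subunit of the M-current that restrains repetitive firing in neurons, was higher in neuron-like cells, with 13.8 CPM there and 1.17 CPM in the others at 45 days and 16.6 and 1.30 CPM at 15 days. It was not particular to them. Endothelial-like cells, described further on, had more KCNQ3 than neuron-like cells at 45 days and somewhat less at 15 days.

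3 members ran the other way, all of the KCNK subfamily. KCNK2, a mechanosensitive leak channel, had 0.964 CPM (3 UMIs) in neuron-like cells and 12.9 CPM in the others at 45 days, and no UMI in neuron-like cells against 12.3 CPM in the others at 15 days. KCNK1 had 0.571 CPM (3 UMIs) against 10.5 CPM at 15 days and KCNK6 1.14 against 10.4 CPM, but at 45 days KCNK1 stood at 7.07 CPM in neuron-like cells and 4.87 CPM in the others. KCNK2 was mainly a gene of mesenchymal-like cells, where the uninduced, 15 day and 45 day libraries had 10.0, 19.3 and 15.8 CPM of it.

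**Figure D1:**
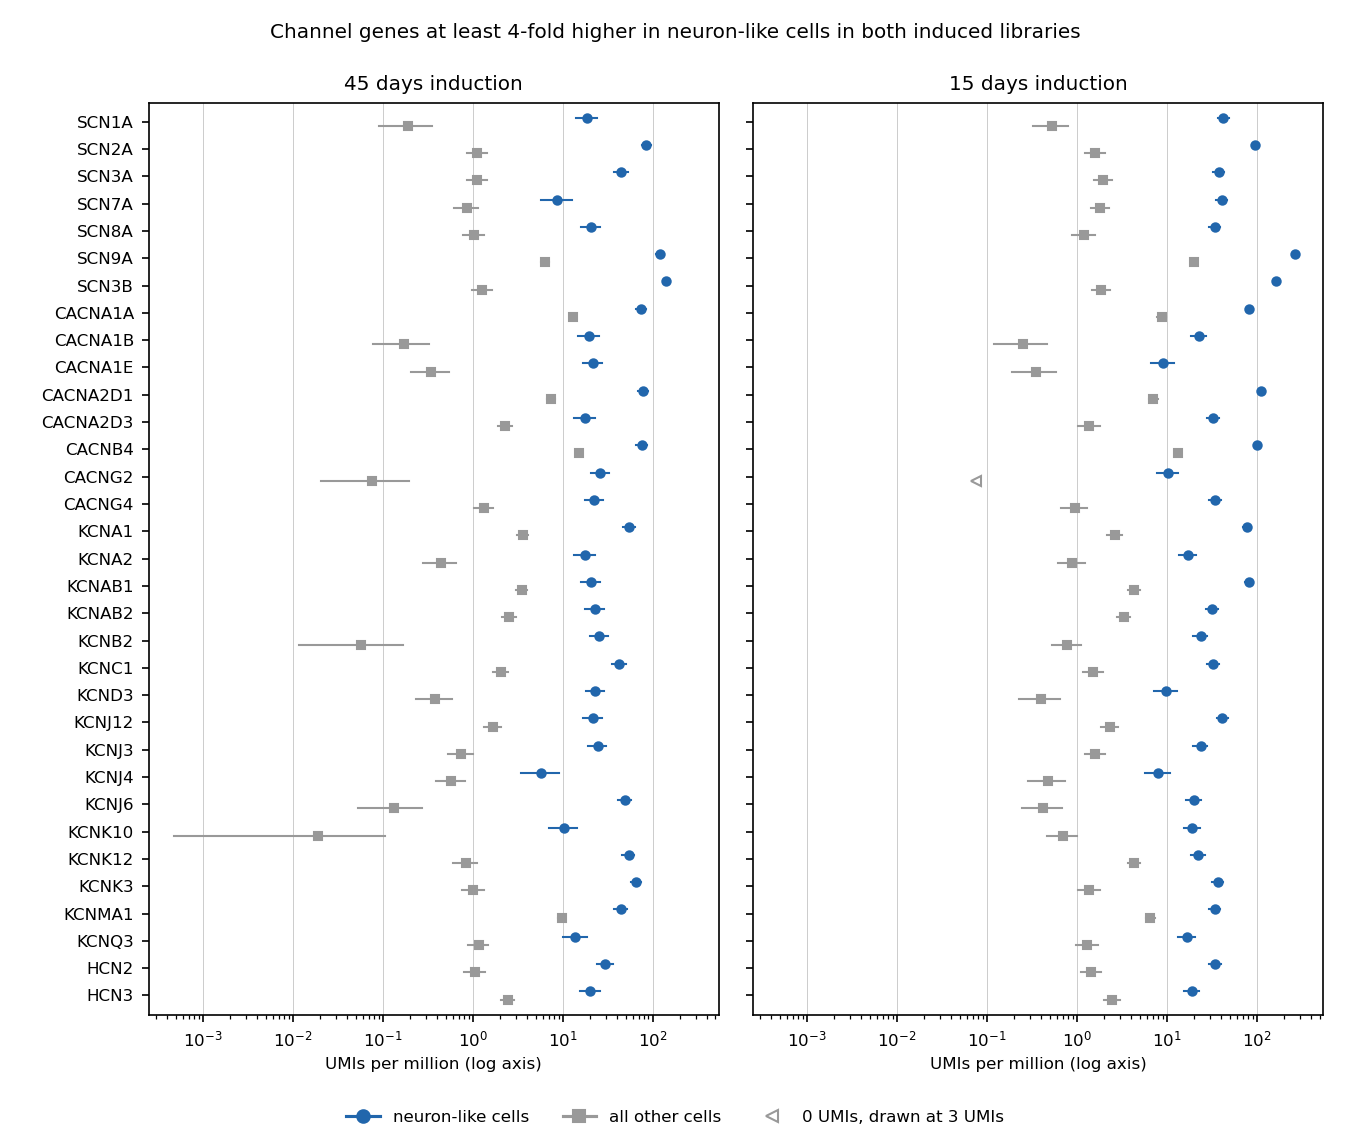
Level of 33 of the channel genes called higher in both induced libraries, in neuron-like cells and in the other cells, in CPM on a log axis, for the 45 day library (left panel) and the library labelled 15 days (right panel). Points are summed levels, lines exact Poisson 95% intervals, and open triangles stand for 0 UMIs drawn at the level of 3 UMIs; SCN3B at 142 against 1.28 CPM and KCNJ6 at 48.8 against 0.134 CPM at 45 days are wide apart, and CACNA1A at 74.2 against 12.9 CPM is closer.

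Both neuron-like clusters carried channel RNA, at different levels. Cluster 18 was led by NEUROD1, INSM1, HES6 and NHLH1, genes of young neurons, and cluster 21 by the filament genes NEFL and PRPH and by RTN1. Cluster 18 held 194 cells at 45 days and 122 cells at 15 days, with a median of 3487 and 1995 UMIs a cell. Cluster 21 held 111 and 177 cells, with 19831 and 25437 UMIs. The 112 genes summed to 2099 CPM in cluster 21 and 1254 CPM in cluster 18 at 45 days, and to 2290 and 1195 CPM at 15 days. Against the cells outside neurons, 43 of 64 channel genes at the floor were higher and 2 lower in cluster 21 at 45 days (all genes 12.1% and 9.01%), and 27 of 54 were higher and 1 lower in cluster 18 (7.53% and 5.04%). At 15 days 41 of 64 were higher and 3 lower in cluster 21 (9.89% and 11.9%), and 28 of 56 and 3 in cluster 18 (7.95% and 7.27%). Most of these genes passed the floor only through the neuron-like cluster and had to differ: 45 in cluster 21 and 35 in cluster 18 at 45 days, and 42 and 34 at 15 days. Among the 19 genes with 5 CPM or more in the other cells at 45 days, 6 were higher in cluster 21 and 2 in cluster 18, against 4.63% and 2.18% of all genes selected in that way. At 15 days 5 of 22 were higher in each cluster, against 3.98% and 2.24%. Set against each other at 2-fold, 30 genes were higher and 4 lower in cluster 21 than in cluster 18 at 45 days, where 14.7% of all genes at the floor were higher and 15.0% lower. At 15 days 26 were higher and 0 lower, where the shares were 12.7% and 17.1%. Among the genes with 5 CPM or more in cluster 18, 16 of 50 were higher at 45 days and 19 of 51 at 15 days (all genes 9.82% and 8.48%). The clusters differed more than 5-fold in median depth. Markers of other classes differed as well. At 15 days the cycling list summed to 24.5 CPM in cluster 21 and 346 CPM in cluster 18, against 603 CPM in the cells outside neurons, the liver list to 69.9 and 460 CPM, against 3755 CPM, and the endothelial list to 55.9 and 278 CPM, against 1037 CPM. At 45 days the cycling list summed to 27.6 CPM in cluster 21 and 156 CPM in cluster 18, and the mesenchymal list to 1996 and 2481 CPM. The part of depth and of this RNA in these counts was not tested.

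SCN2A and KCNA1 were carried mostly by cluster 21. SCN2A had 109 CPM in cluster 21 and 11.9 CPM in cluster 18 at 45 days (9.17-fold, 4.75 to 20.3), and 100 and 28.4 CPM at 15 days. KCNA1 had 69.6 CPM in cluster 21 and 9.26 CPM (7 UMIs) in cluster 18 at 45 days and 81.8 and 22.7 CPM (8 UMIs) at 15 days. CACNA1A did not differ between the clusters by the rule, at 72.2 CPM in cluster 21 and 80.7 CPM in cluster 18 at 45 days and 82.8 and 79.4 CPM at 15 days. KCNJ6 was opposite in the 2 libraries. At 45 days it had 25 CPM in cluster 21 and 123 CPM (93 UMIs in 52 cells) in cluster 18, 4.91-fold lower in cluster 21, while at 15 days it had 21 CPM in cluster 21 and 5.67 CPM (2 UMIs) in cluster 18. KCNJ6 was among the 10 leading genes of cluster 18, although it had no part in the clustering.

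Between the neuron-like cells of the 2 induced libraries most channel genes were less than 2-fold apart. Of 65 genes at the floor, 12 were higher at 45 than at 15 days and 8 were lower, where 4.23% of all genes were higher and 2.10% lower. Of the 65, 8 passed the floor only through the 45 day cells. Among the 57 with 5 CPM or more at 15 days, 6 were higher at 45 days, against 1.84% of all genes selected in that way. Different shares of cluster 18 and cluster 21 made up the neuron-like cells of the libraries, so the clusters are also given on their own. Within cluster 21 alone 12 genes were higher and 7 lower at 45 days (all genes 3.75% and 1.95%), and within cluster 18 15 and 10 (12.4% and 12.4%). Of genes with 5 CPM or more at 15 days, 6 of 58 were higher in cluster 21 and 8 of 51 in cluster 18 (all genes 1.68% and 7.36%). The G protein-gated KCNJ6 (48.8 CPM at 45 days, 20.0 CPM at 15 days; 2.44-fold, 1.89 to 3.17) differed through cluster 18, where it had 123 CPM at 45 days and 5.67 CPM at 15 days, while in cluster 21 it had 25 and 21 CPM. KCND2, a subunit of the A-type current of dendrites, had 15.1 CPM at 45 days and 1.14 CPM (6 UMIs) at 15 days, 13.2-fold (5.64 to 37.9), and in cluster 21 alone 17.8 and 1.22 CPM. KCND3, its close relative, had 23.1 CPM at 45 days and 9.70 CPM at 15 days, and in cluster 21 29.3 and 9.79 CPM. KCNK12, a member of the halothane-inhibited leak channels, had 54.0 CPM at 45 days and 22.3 CPM at 15 days. Also called higher at 45 days were CACNA1E, CACNG2, CACNG3, KCNJ16, KCNK1, KCNN2 and KCNN3.

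Genes lower at 45 days were led by SCN7A, which encodes an atypical sodium channel that senses sodium rather than voltage. SCN7A had 8.68 CPM at 45 days and 40.7 CPM at 15 days, 4.69-fold lower (3.14 to 7.29), and in cluster 21 alone 8.49 and 42.8 CPM. KCNAB1 had 20.6 CPM at 45 days and 82.0 CPM at 15 days, 3.99-fold lower (3.06 to 5.27), and in cluster 21 21.2 and 86.9 CPM. In cluster 18 KCNAB1 did not share this direction, at 18.5 CPM (14 UMIs) at 45 days and 14.2 CPM (5 UMIs) at 15 days. SCN9A had 120 CPM at 45 days and 265 CPM at 15 days, 2.20-fold lower (1.96 to 2.47). Within cluster 21 SCN9A had 154 and 277 CPM, under 2-fold apart, and in cluster 18 15.9 CPM (12 UMIs) and 96.5 CPM (34 UMIs). SCN1A had 18.6 CPM at 45 days and 42.4 CPM at 15 days, 2.28-fold lower (1.70 to 3.09). KCNH5, KCNH6 and KCNJ2 were also lower, each under 12 CPM in both libraries.

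**Figure D2:**
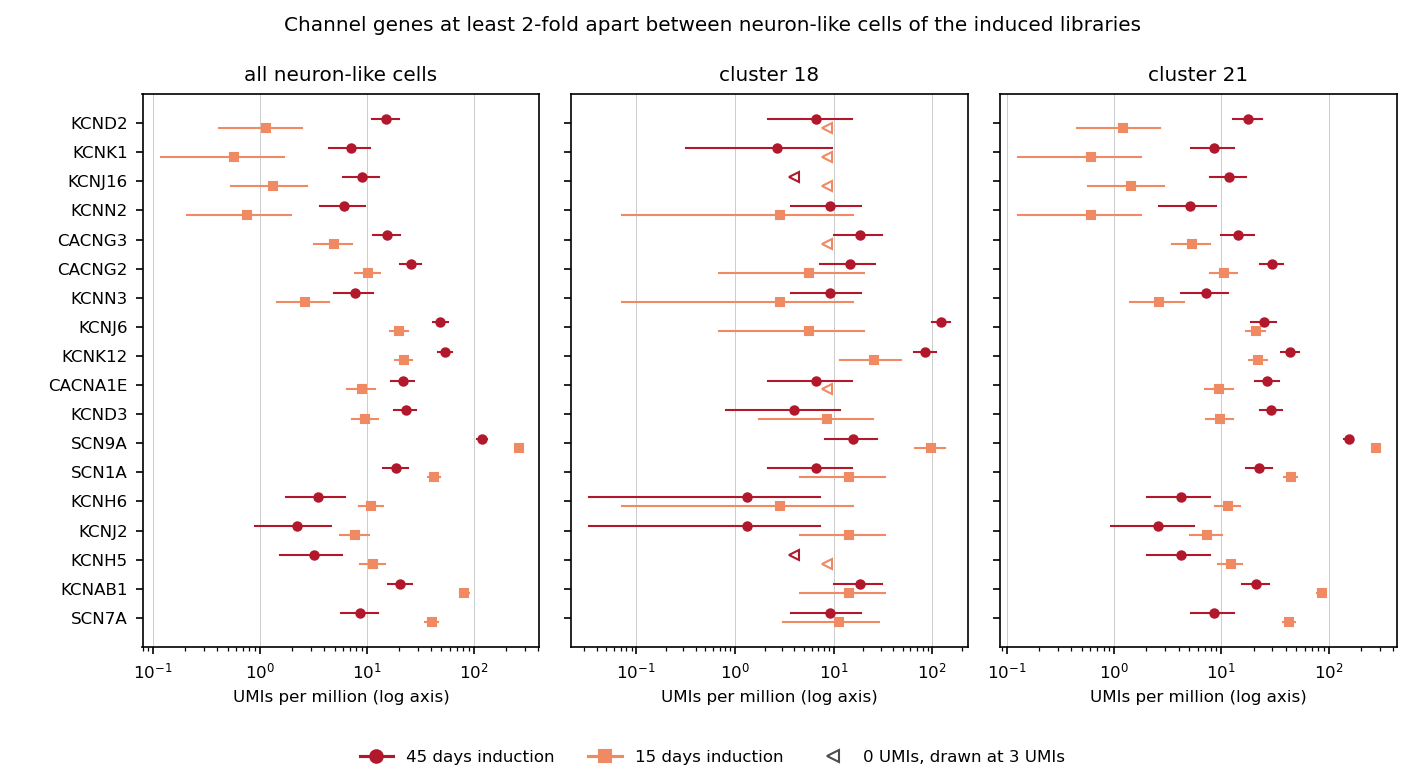
Level of 18 channel genes at least 2-fold apart between the neuron-like cells of the 45 day library and those of the library labelled 15 days, in CPM on a log axis, in all neuron-like cells, in cluster 18 and in cluster 21. Points are summed levels, lines exact Poisson 95% intervals and open triangles 0 UMIs drawn at 3 UMIs; in cluster 21 SCN7A lies at 8.49 against 42.8 CPM and KCND2 at 17.8 against 1.22 CPM, while the intervals of many genes overlap in cluster 18.

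Over all cells of a library, the channel genes that differed at 2-fold were largely those of the neuron-like cells. In such sums a larger share of cells and more RNA per cell cannot be told apart. The 2 comparisons with the uninduced library share that library. At 45 days against no induction 25 genes reached the floor, 3 were higher (SCN2A, SCN3B and KCNA1) and 3 lower (KCNMA1, KCNN2 and KCNK1), where 3.11% of all genes were higher and 2.12% lower. At 15 days against no induction 39 genes reached the floor, 17 were higher and 2 lower (15 and 4 with median-of-ratios scaling), where 7.15% and 1.48% of all genes were. Without the neuron-like cells the counts were 0 higher and 3 lower at 45 days (all genes 1.42% and 2.24%). At 15 days they were 1 higher and 2 lower (3.51% and 1.47%). With all cells, 5 channel genes at 45 days and 19 at 15 days passed the floor only through the induced library. Among the 20 with 5 CPM or more in the uninduced library, 0 were higher at 45 days and 3 at 15 days. The shares of all genes selected in that way were 1.30% and 3.14%. SCN3B had 1.80 CPM over all uninduced cells, 20.4 CPM at 15 days and 9.18 CPM at 45 days. SCN2A had 0.879, 12.4 and 5.86 CPM in that order. Both were highest in the library with the largest share of neuron-like cells. Between the induced libraries 0 genes were higher and 6 lower at 45 days (SCN1A, SCN3B, SCN7A, SCN9A, KCNAB1 and KCNJ12; all genes 0.445% and 3.46%), and without neuron-like cells 0 and 1 (0.39% and 2.89%), the 1 being SCN9A.

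SCN9A was also present at a clear level in cells that were not neuron-like. Endothelial-like cells had 83.5 CPM (281 UMIs in 437 cells) of SCN9A without induction, 66.0 CPM (187 UMIs in 317 cells) at 15 days and 71.7 CPM (109 UMIs in 212 cells) at 45 days. The other cells that were not neuron-like had 1.32 CPM without induction, 63.4-fold below the endothelial-like cells (48.1 to 84.7), in a library with no neuron-like cell. Thinned to 2000 UMIs, SCN9A was found in 17.0%, 13.6% and 12.6% of endothelial-like cells of the uninduced, 15 day and 45 day libraries, and unthinned in 40.0%, 36.3% and 32.1%. Within the endothelial-like class, cluster 13, led by PRND and ESM1, had 91.7, 65.7 and 79.5 CPM of SCN9A in the same order. Cluster 19, led by NTS, APLNR and LYVE1, had 64.6, 67.0 and 23.4 CPM (5 UMIs at 45 days).

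In mesenchymal-like cells SCN9A differed between libraries. It had 1.44 CPM (36 UMIs in 4356 cells) without induction, 20.5 CPM (427 UMIs in 2805 cells) at 15 days and 4.40 CPM (154 UMIs in 6261 cells) at 45 days. The library labelled 15 days was 14.2-fold above the uninduced one (10.1 to 20.6). In this comparison 3.01% of all genes were at least 2-fold higher, 2 channel genes among them. SCN9A passed the floor only through the library labelled 15 days. Thinned, SCN9A was found in 0.237%, 3.76% and 0.867% of mesenchymal-like cells. Different clusters hold most of that class in each library. The same order was seen within clusters 0, 2 and 10: cluster 0 (CLDN11, MEOX2) had 2.10, 31.2 and 8.27 CPM, cluster 2 (TAC1, TCF21) 4.70, 25.9 and 7.77 CPM, and cluster 10 (HAND1, FOXF1) 2.34, 31.9 and 4.18 CPM. Values of the other clusters of the class are not listed here. Mural-like cells had 1.88, 11.9 and 7.72 CPM, with 3 channel genes higher at 15 days and 4 at 45 days against no induction (all genes 3.49% and 3.12%). SCN3B had no such order: in mesenchymal-like cells it had 0.920, 0.865 and 0.80 CPM. At 15 days the level of SCN9A in all cells that were not neuron-like was 7.49% of that in neuron-like cells, against 1.15% for SCN3B, 1.67% for SCN2A and 1.23% for SCN1A. Of 8 neuronal genes that are no channels, the same share was 8.99% for STMN2. All the others lay between 0.363% (SCG3) and 0.752% (PRPH). Over 65 points of cluster and library, the channel genes whose levels ran most like that of SCN9A were KCNQ3 (Pearson r of log2(CPM + 1) 0.67), SCN3B (0.64), KCNC4 (0.58), SCN1A (0.57) and SCN8A (0.56). These points share libraries and depth, and the coefficients are descriptions.

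Several channel genes were higher in endothelial-like cells than in the rest in all 3 libraries. Against all other cells that were not neuron-like, the 4-fold rule called 10 genes higher and 6 lower of 29 at the floor without induction, where it called 7.77% and 6.44% of all genes. It called 9 and 9 of 30 in the library labelled 15 days (6.81% and 8.07%) and 11 and 7 of 29 in the 45 day library (7.93% and 6.30%). Of the genes at the floor 12, 10 and 11 passed it only through the endothelial-like cells, without induction, at 15 and at 45 days, so that they had to differ. Among the 17, 20 and 18 genes with 5 CPM or more in the rest, 1, 2 and 2 were higher, against 4.13%, 3.79% and 4.08% of all genes selected in that way. KCNJ2, the strong inward rectifier that sets the resting potential of endothelium, had 56.7 CPM in endothelial-like cells and 4.20 CPM in the rest without induction, 107 and 1.02 CPM at 15 days, and 112 and 1.24 CPM at 45 days. KCNC4, a fast delayed rectifier, had 44.3 and 0.878 CPM, 66.3 and 0.857 CPM, and 63.8 and 0.531 CPM in the same pairs of endothelial-like cells and the rest. CACNG8, a relative of CACNG2, had in these pairs 75.7 and 10.7 CPM, 167 and 9.59 CPM, and 146 and 6.85 CPM. KCNN3, a calcium-activated channel of endothelium-dependent relaxation, had 41.9 CPM in uninduced endothelial-like cells and 62.5 and 60.5 CPM in those of the 15 day and 45 day libraries. KCNQ1, KCNQ3 and SCN3B were also called higher in each library. CACNA1G was lower in endothelial-like cells each time, with 1.49 CPM against 19.7 CPM in the rest without induction.

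A few endothelial levels differed between libraries. By the 2-fold rule 5 of 19 genes at the floor were higher and 1 lower at 45 days than without induction (all genes 3.42% and 2.48%). At 15 days 5 of 18 were higher and 0 lower (2.48% and 1.55%). Among the 16 genes with 5 CPM or more in uninduced endothelial-like cells, 3 were higher at 45 days and 4 at 15 days. The shares of all genes selected in that way were 1.31% and 1.24%. KCNQ3 had 5.94 CPM in the uninduced library, 13.1 CPM at 15 days and 32.2 CPM at 45 days, where the difference from no induction was 5.42-fold (3.16 to 9.63). CACNA1C had 3.86, 13.1 and 11.8 CPM. CACNG8 was 2.20-fold higher at 15 days than without induction (1.88 to 2.57). The endothelial-like cells came from cluster 13 for 266 of 437, 239 of 317 and 166 of 212 cells, and from cluster 19 for the rest.

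**Figure D3:**
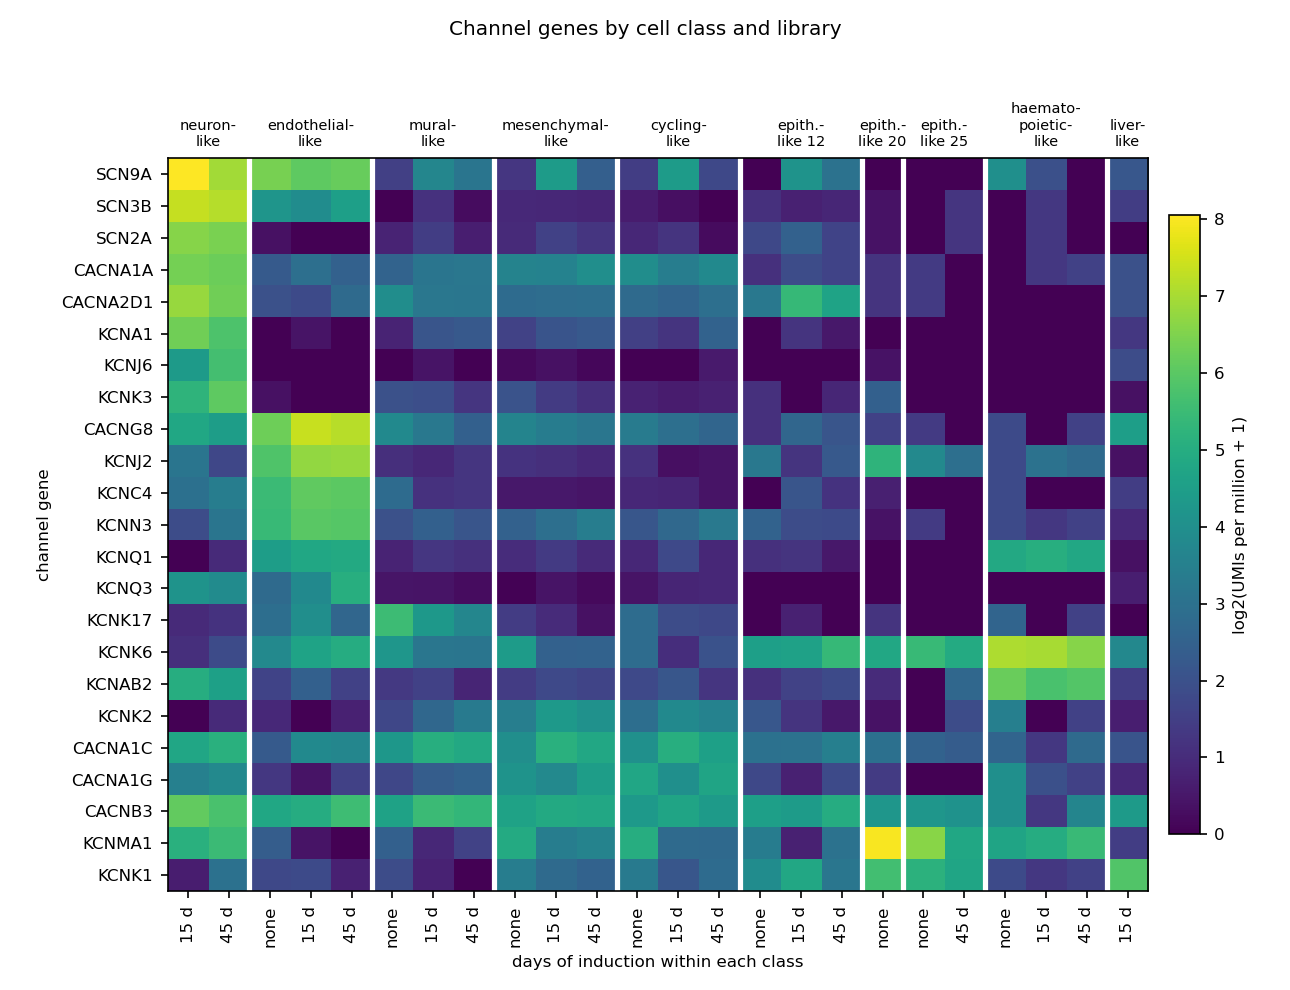
Heat map of 23 channel genes in each cell class with at least 50 cells, by library (no induction, 15 days, 45 days), with colour as log2(CPM + 1); epithelial-like cells are split into clusters 12, 20 and 25. SCN9A is bright in neuron-like and endothelial-like columns, KCNJ2, KCNC4 and CACNG8 in endothelial-like columns, KCNK6 in haematopoietic-like columns and KCNMA1 in cluster 20 without induction.

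Other classes had their own leak and calcium-activated channels. KCNK17, an alkaline-activated leak channel, was at least 4-fold higher in mural-like cells than in the rest in every library, with 45.1 against 2.18 CPM without induction, 18.8 against 2.15 CPM at 15 days and 12.1 against 0.698 CPM at 45 days. By that rule 2 of 25 channel genes at the floor were higher and 4 lower in mural-like cells of the uninduced library (all genes 1.57% and 4.14%). In the library labelled 15 days 1 of 25 was higher and 3 lower (0.854% and 4.75%), and in the 45 day library 1 of 23 and 1 (1.29% and 3.2%). Every gene called higher, KCNK17 included, passed the floor only through the mural-like cells. Among the 20, 22 and 20 genes with 5 CPM or more in the rest, 0 were higher (all genes 0.877%, 0.561% and 0.837%). Within mural-like cells KCNK17 was 2.40-fold lower at 15 days (1.84 to 3.15) and 3.73-fold lower at 45 days (2.72 to 5.17) than without induction, where 2.19% of all genes were lower at each time. The class was made of cluster 3 and cluster 24, and cluster 24 held 74 of 369 mural-like cells in the uninduced library, 49 of 699 in the 15 day library and 55 of 776 in the 45 day library. In cluster 3 KCNK17 had 57.9, 19.4 and 11.5 CPM in that order, and in cluster 24 20.0, 12.6 and 17.5 CPM, from 18, 7 and 9 UMIs. In haematopoietic-like cells, which were led by complement C1Q genes, KCNK6 had 132 CPM in the uninduced library, 128 CPM at 15 days and 96.2 CPM at 45 days, and KCNAB2 had 73.5, 52.3 and 58.9 CPM. KCNK13, a potassium channel of microglia and macrophages, had 17.7, 21.8 and 13.7 CPM there, from 7, 15 and 7 UMIs. In mesenchymal-like cells KCNK6 had 20.5 CPM in the uninduced library, 4.71 CPM at 15 days and 4.83 CPM at 45 days; it was 4.36-fold lower at 15 days (3.5 to 5.47) and 4.25-fold lower at 45 days (3.56 to 5.09), where 1.94% and 2.18% of all genes were lower. Of the 513 KCNK6 UMIs in uninduced mesenchymal-like cells, 376 lay in cluster 15, which held 463 cells of that library, 2 of the 15 day and 31 of the 45 day library. Cluster 15 had 67.5 CPM of KCNK6 without induction and 79.2 CPM (31 UMIs) at 45 days. KCNK6 had 14.1, 5.87 and 4.5 CPM in cluster 2 without induction, at 15 and at 45 days, and 5.31, 6.14 and 4.14 CPM in cluster 4. The liver-like cells, 194 of them in the library labelled 15 days, had 57.0 CPM of KCNK1 and 45.8 CPM of KCNK12.

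KCNMA1, the large-conductance calcium-activated potassium channel, fell furthest below the uninduced library among the genes called in both comparisons over all cells. Over all cells it had 49.2, 9.71 and 11.8 CPM without induction, at 15 and at 45 days. It was 5.07-fold lower at 15 days and 4.19-fold lower at 45 days (3.84 to 4.57). KCNMA1 was also among the genes higher in neuron-like cells, with 44.3 CPM in neuron-like cells and 9.82 CPM in the others at 45 days, and 33.9 and 6.55 CPM at 15 days. Its highest levels lay in other clusters of the uninduced library. In cluster 20, epithelial-like and led by GABRP, it had 250 CPM without induction (245 cells) and 47.1 CPM at 45 days (35 cells). In cluster 25, also epithelial-like, it had 98.0 CPM (61 UMIs in 65 cells) without induction. In cluster 1, unnamed and led by PTX3 and OGN, it had 83.9 CPM in the 1711 cells without induction, 0 UMIs in the 36 cells at 15 days and 1.5 CPM (1 UMI) in the 124 cells at 45 days. Cluster 0, mesenchymal-like, held cells of all 3 libraries and did not show the order, at 26.3, 23.2 and 37.4 CPM. In cycling-like cells KCNMA1 had 31.4, 5.88 and 5.81 CPM. With 1 library per group, a cluster made mostly of 1 library cannot be told apart from that library.

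**Figure D4:**
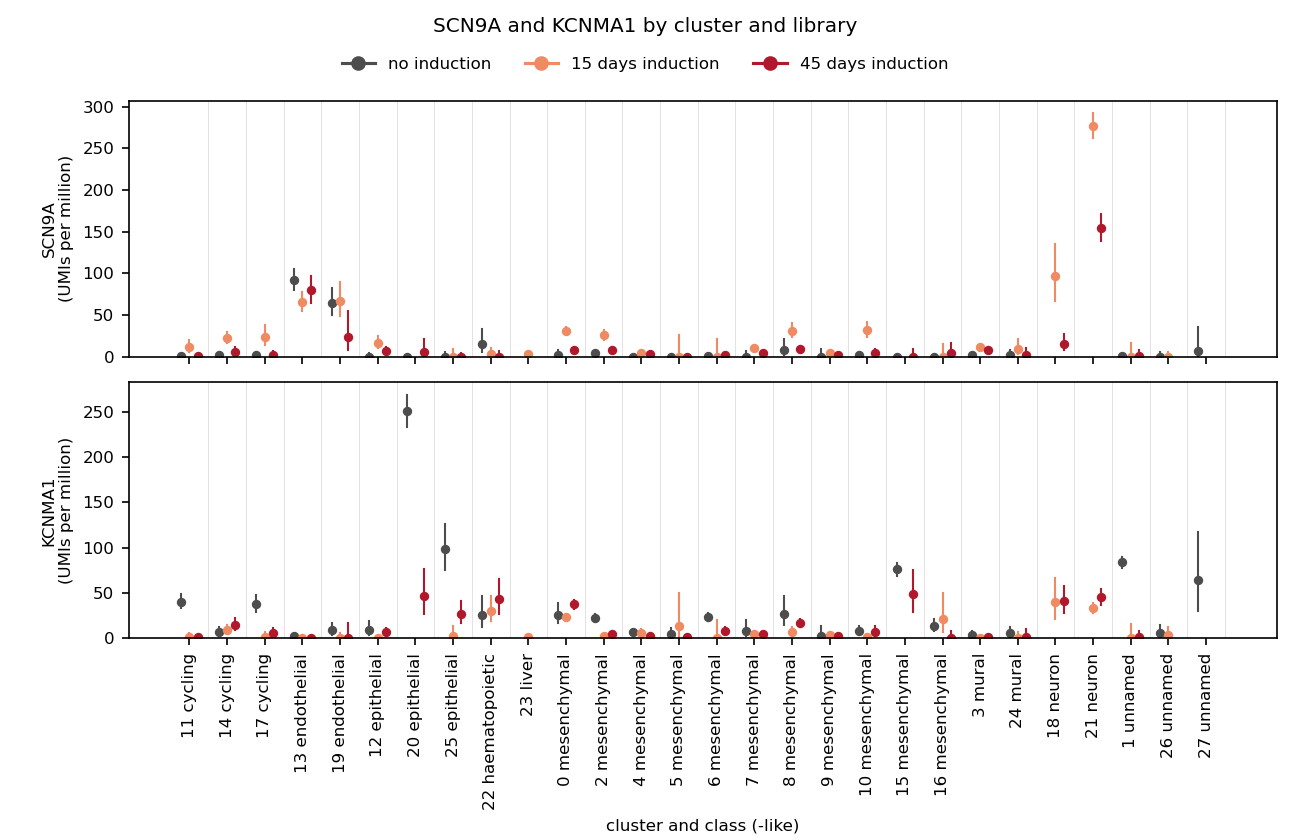
Level of SCN9A and KCNMA1 in each cluster and library with at least 20 cells, in CPM on a linear axis. Points are summed levels and lines exact Poisson 95% intervals. SCN9A is high in the neuron-like cluster 21 and in the endothelial-like cluster 13, and in clusters 0, 2 and 10 it lies higher at 15 days than without induction; KCNMA1 reaches 250 CPM in cluster 20 of the uninduced library.

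Genes that assemble with these channels were also followed in neuron-like cells. Of 16 genes of the axon initial segment and channel anchoring, all at the floor, the 4-fold rule called 10 higher and 0 lower at 45 days and 10 higher and 1 lower at 15 days (median log2 ratio 3.18 and 2.98, against 0.30 and 0.11 over all genes). ANK2, an ankyrin that ties membrane proteins to the cytoskeleton, had 413 CPM in neuron-like cells and 4.15 CPM in the others at 45 days and 401 and 7.22 CPM at 15 days. FGF13, which binds sodium channel alpha subunits, had 99.6 CPM in neuron-like cells and 1.09 CPM in the others at 45 days and 255 and 5.21 CPM at 15 days. Of 17 auxiliary subunits 10 reached the floor, of which 3 were higher at 45 days and 4 at 15 days, and KCNE4 was lower in both; for this and the lists below, 11.0% and 9.75% of all genes were higher and 7.35% and 11.3% lower at 45 and 15 days. DPP6, a partner of KCND channels, had 63.0 CPM in neuron-like cells and 0.630 CPM in the others at 45 days and 49.7 and 0.623 CPM at 15 days. All 5 measured genes of the NALCN sodium leak complex were higher at 45 days, and 3 of 4 at the floor at 15 days, with NALCN itself at 13.5 CPM in neuron-like cells and 0.458 CPM in the others at 45 days and at 7.23 and 0.448 CPM at 15 days. Of 13 silent or sodium-activated potassium channel genes 4 reached the floor at 45 days and 3 at 15 days, and KCNT1 was higher in both. Of 8 genes of sodium pumps and chloride transport 2 were higher in each library, among them ATP1B1, a beta subunit of the pump, with 1851 CPM in neuron-like cells and 73.9 CPM in the others at 45 days and 1028 and 91.2 CPM at 15 days.

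The stretch before the start of several of these genes was read to see whether genes higher in neuron-like cells share the E-box that NEUROD1 and its relatives bind. Of 112 genes 80 had an entry in the RefSeq promoter table for GRCh38.p14, and 250 bases before the start were searched on both strands for CANNTG and, within it, for CAGATG, read as CATCTG on the other strand. CAGATG was found in 12 of 80 channel genes (15.0%), against 12.2% of 35116 promoters of all genes, and in 2 of the 24 genes higher in both libraries (8.33%), KCNA2 and KCNJ4, against 10 of 56 other channel genes (17.9%). Any CANNTG was in 5 of the 24 (20.8%), in 42 of the 56 (75.0%) and in 61.8% of all promoters, and the median GC content was 67.4%, 65.4% and 58.0% in that order. A match is a description of letters, not a site. The stretches of 4 of the genes higher in both libraries follow, 5′ to 3′ on the strand of the gene, without bases in annotated exons of the gene. Capitals mark CANNTG in these stretches. They lie at chr2:166376002-166376194 (minus strand, SCN9A), chr2:165239164-165239371 (plus strand, SCN2A), chr21:37916458-37916707 (minus strand, KCNJ6) and chr22:38444029-38444278 (minus strand, KCNJ4), of which the last 3 lie inside the annotated span of their gene.
SCN9A: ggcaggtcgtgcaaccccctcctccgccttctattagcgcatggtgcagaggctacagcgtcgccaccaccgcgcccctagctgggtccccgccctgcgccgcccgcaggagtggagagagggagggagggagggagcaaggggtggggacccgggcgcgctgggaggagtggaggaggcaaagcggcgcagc
SCN2A: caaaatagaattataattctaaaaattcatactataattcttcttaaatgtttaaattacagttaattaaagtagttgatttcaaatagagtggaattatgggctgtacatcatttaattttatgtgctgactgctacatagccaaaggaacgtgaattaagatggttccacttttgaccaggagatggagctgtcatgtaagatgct
KCNJ6: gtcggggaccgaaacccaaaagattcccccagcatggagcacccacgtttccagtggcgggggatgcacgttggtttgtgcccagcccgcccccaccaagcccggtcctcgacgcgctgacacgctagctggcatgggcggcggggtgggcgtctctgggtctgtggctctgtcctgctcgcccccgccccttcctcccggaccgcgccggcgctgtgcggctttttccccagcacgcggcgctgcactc
KCNJ4: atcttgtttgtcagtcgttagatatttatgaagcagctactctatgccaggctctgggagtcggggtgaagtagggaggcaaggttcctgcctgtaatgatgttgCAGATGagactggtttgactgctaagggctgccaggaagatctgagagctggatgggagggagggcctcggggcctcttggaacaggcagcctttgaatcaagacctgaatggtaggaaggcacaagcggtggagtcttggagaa
The single whole CANNTG among the stretches as shown is the CAGATG of KCNJ4, 145 bases before its start. SCN9A also counts among the genes with a CANNTG: its CAGCTG runs over the end of the stretch shown into an annotated exon. KCNJ4, a strong inward rectifier of forebrain neurons, had 5.78 CPM in neuron-like cells and 0.573 CPM in the others at 45 days and 7.99 and 0.473 CPM at 15 days. Its level in neuron-like cells was thus near the floor, with 18 UMIs at 45 days.

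Several of these genes lie together or overlap others, which bears on what was counted. SCN3A, SCN2A, SCN1A, SCN9A and SCN7A follow each other on chromosome 2 of GRCh38, where SCN9A spans 166195185 to 166376001 and SCN1A 165984641 to 166149214, both on the minus strand. The start of SCN2A overlaps that of SCN3A on the other strand. The gene AC010127.1 runs opposite to the 3′ ends of SCN1A and SCN9A and Z97056.1 opposite to that of KCNJ4. Of the other genes named here, SCN3A, HCN3, KCNC1, KCND2, KCNK10, KCNK12, KCNN2, KCNQ1 and CACNA1G also have a gene opposite to their 3′ end, and CACNB4 has one on its own strand. How strand entered the counting is not given in the sources used here, so reads of these pairs may not be told apart and the values of these genes are uncertain to that extent. KCNJ18 is nearly identical to KCNJ12 and was listed at 0 in all libraries, so the KCNJ12 values may hold its reads.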

How the data were processed

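Single-cell RNA was counted in 3 libraries (10x 3′ v3 chemistry, per the labels' protocols), 1 per group. The deposited values are the authors' UMI counts per gene and cell, made with Cell Ranger 3.0.0 on GRCh38 per the submitters' processing notes; the file headers name software version 3.0.1. The annotation and the use of strand are not given in the sources used here.

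Barcodes under 1000 UMIs, under 500 genes or over 20% mitochondrial UMIs were dropped. Doublets scored against simulated pairs were removed at 0.8% of a library per 1000 cells, which took 744, 225 and 628 cells at 45 days, 15 days and without induction. The libraries were clustered together without integration on 2000 variable genes, from which all genes of the name pattern were left out, with 30 principal components, 15 neighbours and Leiden resolution 1.0. A cluster was called X-like where at least 3 markers and 1 in 3 of a list (14 lists) were 2-fold higher than in other cells and in at least 10% of its cells, with 1 of them among its top 20 genes. A cluster left unnamed was called mesenchymal-like where at least 3 mesenchymal markers were 2-fold higher than in the named clusters other than mesenchymal-, mural- and cycling-like ones. These limits were chosen with the data in view.

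Counts were summed over the cells of a class and library and divided by the total (CPM). Ratios were taken with 1 CPM added to each side. Folds in the text are ratios of CPM with nothing added, with exact conditional binomial 95% intervals; sums have exact Poisson and shares exact Clopper-Pearson intervals. A sum of 0 was set to 3 UMIs for bounds. No test was made with 1 library per group. The genes named are those with the highest levels or ratios in neuron-like cells, in the other classes and in each comparison, and the leading gene of each subfamily. Some genes counted in the set are not reported by name here. The genes and lists were chosen with earlier results of these data known. Alternatives were other additions, floors, folds and scalings, thinned cells, other cell filters and clusterings, a marker count in place of clusters, and leaving out cell classes. The calls and intervals were tested on simulated Poisson sums. These hold counting error alone, with no spread between cells or libraries, so they do not show how the calls behave under such spread. Gene spans are from GENCODE release 29, where 33456 of 33538 identifiers were found. Python 3.11.15, numpy 2.4.6, scipy 1.17.1, scikit-learn 1.9.0, scanpy 1.11.5, leidenalg 0.10.2 and matplotlib 3.10.9 were used.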

Additional observations from a re-analysis of the deposited data

Results flagged for a closer look

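KCNN2, a small-conductance calcium-activated potassium channel, lay on opposite sides in the induced libraries. Its log2 ratio of neuron-like to other cells was 1.22 at 45 days, from 19 UMIs in neuron-like cells, and -1.29 in the library labelled 15 days, from 4 UMIs. The difference between the libraries was not tested.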

How the results depend on the processing

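Of 1926 values recomputed under an alternative, 1638 kept their direction and size, 278 moved and 10 reversed. These values are log2 ratios of called genes. Floor and fold do not enter a ratio, so under other floors and folds it had to stay the same. Those settings are counted among the 1638 and bear only on the counts of genes below. No paired analysis was possible because each group has 1 library. Leaving out a neuron-like cluster or the liver-like cells was chosen after seeing the data. For neuron-like against other cells the 41 genes higher at 45 days became 25 with 5 CPM added to each side and 27 without cluster 21, and the 40 at 15 days became 26 with 5 CPM added. For 45 days against no induction the 6 genes past 2-fold became 2 with 5 CPM added, 2 with a floor of 10 CPM, 16 with no floor, 0 at 4-fold and 3 without neuron-like cells. For 15 days against no induction the 19 became 9, 8, 33, 7 and 3 in the same order. For 45 against 15 days the 6 became 1 with 5 CPM added, 3 with a floor of 10 CPM, 0 at 4-fold and 1 without neuron-like cells. Within neuron-like cells the 20 became 12 with 5 CPM added and 5 at 4-fold.

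Log2 ratios of neuron-like to other cells without cluster 21 turned to -0.50 for CACNA2D3 and -0.11 for KCNJ16 at 45 days, and to -0.43 for CACNA1E, -0.17 for KCNAB2 and -0.48 for KCNH5 at 15 days. SCN3B turned to -0.29 for 45 days against no induction without neuron-like cells, which hold most of its RNA. Between the neuron-like cells of 45 and 15 days KCNAB1 turned to 0.36 and KCND3 to -0.94 without cluster 21, and KCNH6 to 0.46 and KCNN3 to -0.026 in thinned cells; the cause was not tested. Median-of-ratios scaling lowered all log2 ratios by 0.27 and 0.15 for neuron-like against other cells at 45 and 15 days. It lowered them by 0.16 and 0.22 for 45 and 15 days against no induction. Between the neuron-like cells of 45 and 15 days it lowered them by 0.07. For all cells of 45 against 15 days the value subtracted was -0.07, which raised the ratios. Genes with few UMIs, most of all in cluster 18, cannot be told from counting error at this depth.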
